A study of Rattus norvegicus with 6 samples.

Results

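The miRNAs examined here are the products of 2 hairpins in the imprinted Igf2 and H19 locus, miR-483 and miR-675. They were chosen by name: every non-control spot of the rat miRNA array whose miRNA has the stem miR-483 or miR-675, either arm. That gave 4 of the 758 miRNAs on the array (miR-483-5p, miR-483-3p, miR-675-5p and miR-675-3p), read by 14 of 1806 probes and 64 of 12128 miRNA spots per array. RNA came from 1 cm of terminal hindgut of Sprague Dawley rat fetuses at embryonic day 20. In the ARM group (n = 3 samples) the fetuses had an anorectal malformation after their dams were given ethylenethiourea (ETU), a teratogen used to produce this malformation in rats, by gavage, 125 mg/kg as a 1% solution, on gestational day 10. In the control group (n = 3 samples) the fetuses were healthy and their dams had received distilled water. Of the treated arm, 4 dams are described in the labels, but the dam of each fetus and the number of fetuses per sample are not, so the p-values cover no more than the differences among these samples, which may be technical, and ETU exposure cannot be told apart from the malformation.

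Igf2 and H19 are neighbouring genes with opposite imprinting: Igf2, a fetal growth factor, is expressed from the paternal chromosome, and the long noncoding RNA H19 from the maternal one, under shared enhancers. Mir483 lies in an intron of Igf2 and Mir675 in an exon of H19, and both host RNAs are abundant in fetal mesoderm, liver and muscle and decline after birth. In human cells miR-483-5p has been reported to raise Igf2 transcription and miR-483-3p to repress the pro-apoptotic gene BBC3. In mice, release of miR-675 from H19 has been reported to restrain growth through Igf1r, the receptor for IGF1 and IGF2, and the arms of miR-675 to repress Smad and cell cycle genes in muscle.

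In the RefSeq annotation of the rat genome (GRCr8) both hairpins lie on the minus strand of chromosome 1, 86.0 kb apart. Mir675 (chr1:207161752-207161835) falls within the span of H19 (chr1:207160175-207162851), and Mir483 (chr1:207247859-207247931) within that of Igf2 (chr1:207243873-207261263). All 4 mature miRNAs matched a RefSeq entry. The hairpins are printed to show where the named arms lie, with the annotated mature arms in capitals and the 5p arm to the left. Which arm a probe reads was taken from its miRNA name on the array.

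Mir483: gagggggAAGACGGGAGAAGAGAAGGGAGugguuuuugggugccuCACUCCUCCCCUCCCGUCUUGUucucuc

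Mir675: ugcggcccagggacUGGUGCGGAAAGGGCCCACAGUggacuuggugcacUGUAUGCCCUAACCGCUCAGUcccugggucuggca

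The mature sequences follow 5′ to 3′, with the seed (bases 2 to 8), the stretch that pairs with target mRNAs, in capitals.

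miR-483-5p: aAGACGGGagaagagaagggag

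miR-483-3p: cACUCCUCcccucccgucuugu

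miR-675-5p: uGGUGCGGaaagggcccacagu

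miR-675-3p: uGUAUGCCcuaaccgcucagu

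No other of the 693 differently named rat mature miRNAs in the RefSeq table has any of these 4 seeds, so none of the members shares a seed with another. The arms of Mir483 differ in base composition. miR-483-5p is 95.5% purine (21 of 22 bases), the highest share among the 209 tested miRNAs with a RefSeq sequence. miR-483-3p is 13.6% purine, and 207 of those 209 have a higher share. miR-675-3p is 38.1% purine and miR-675-5p 63.6%.

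Both arms of Mir483 and the 3p arm of Mir675 were detected in fetal hindgut on all 6 arrays, and the 5p arm of Mir675 on none. Detection of a probe meant that a share of 0.5 or more of its spots on that array was marked well above background by the scanner software. Of the probe and array pairs, 23 of 24 were detected for miR-483-5p, 9 of 12 for miR-483-3p, 14 of 24 for miR-675-3p and 0 of 24 for miR-675-5p. Over the 14 probes, 23 of 42 pairs were detected in ARM and 23 of 42 in control. Of all 1806 probes, 347, 352 and 423 were detected on ARM arrays 1 to 3. On control arrays 1 to 3 the numbers were 412, 416 and 349. No member spot was saturated.

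The processed signals of the detected member probes were low, at most 151 intensity units before scaling between arrays. Over all miRNAs, the dimmest detected probe of an array read 11.8 to 14.7 in ARM and 14.7 to 16.1 in control. The arrays also differed in brightness: over the 300 probes that every array detected, the 75th percentile was 203 to 221 in ARM and 225 to 290 in control. All levels below are therefore on the log2 scale after each array was scaled to a common 75th percentile. The brightness ranges of the groups did not overlap, so a technical difference cannot be told apart from a difference between the groups.

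**Figure D1:**
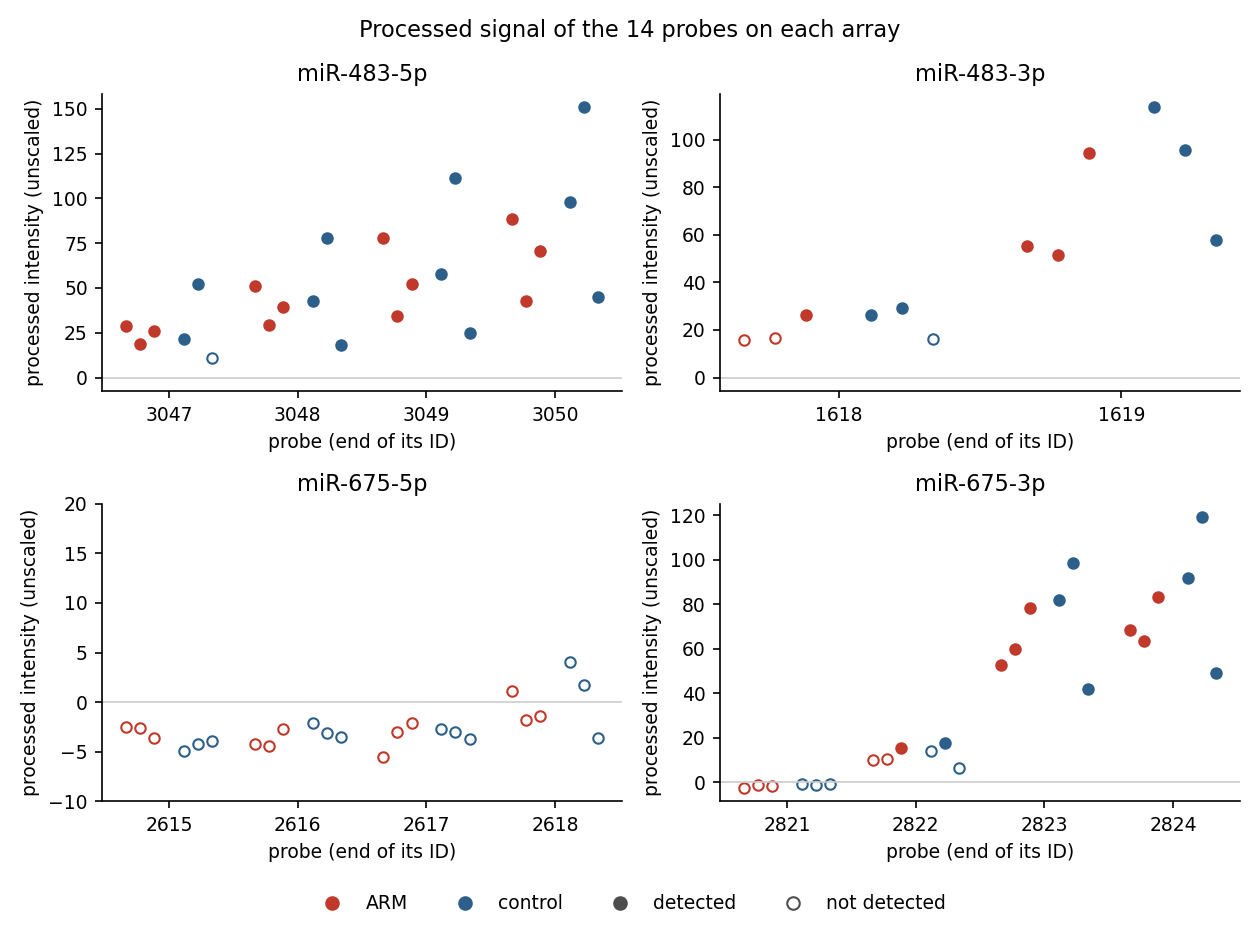
Processed intensity before scaling (vertical axis, linear) of each of the 14 probes (horizontal axis, the last digits of the probe ID) on the 3 ARM and 3 control arrays. Each point is the mean over the spots of 1 probe on 1 array, filled where the probe was detected and open where it was not. The points of miR-675-5p lie between -5.52 and 4.05, most of them below 0, and the ARM and control points of every detected probe overlap.

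miR-483-5p, the arm with 4 probes in use, had levels of 6.03, 5.08 and 5.56 on ARM arrays 1 to 3, against 5.27, 6.27 and 4.51 on control arrays 1 to 3 (log2 scaled intensity). The controls held both the highest and the lowest of the 6 levels, so the groups overlapped entirely. The means were 5.55 ± 0.47 in ARM and 5.35 ± 0.88 in control (SD, n = 3 each), a difference of 0.20 (SE 0.45, 95% interval -0.87 to 1.27; limma across 230 tested miRNAs, adjusted p = 0.745). On the linear scale the interval runs from 0.549-fold to 2.41-fold, the widest of the 3 tested members.

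The 4 probes of miR-483-5p gave unlike signs but the same highest and lowest arrays. Before scaling, probe A_26_P00003050 read 88.5, 43.0 and 70.5 in ARM and 97.8, 151 and 45.2 in control, and probe A_26_P00003047 read 28.6, 18.9 and 26.2 in ARM and 21.3, 52.3 and 11.1 in control. On each of the 4 probes control replicate 2 was the highest array and control replicate 3 the lowest after scaling. The differences were 0.38 (SE 0.48), 0.30 (SE 0.46), 0.25 (SE 0.50) and -0.13 (SE 0.42) for the probes A_26_P00003047, A_26_P00003048, A_26_P00003049 and A_26_P00003050, and none passed the test across 390 probes (limma, adjusted p = 0.557 to 0.838). Probe A_26_P00003047 was below the detection criterion on control replicate 3.

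miR-483-3p, made from the other arm of the same hairpin, had levels of 5.09, 5.04 and 5.72 on ARM arrays 1 to 3, against 5.47, 5.48 and 5.01 on control arrays 1 to 3. ARM replicate 3 was highest and control replicate 3 lowest, and the groups overlapped. The means were 5.28 ± 0.38 in ARM and 5.32 ± 0.27 in control (SD, n = 3 each), a difference of -0.037 (SE 0.25, 95% interval -0.63 to 0.56; limma, adjusted p = 0.913). On the linear scale the interval runs from 0.647-fold to 1.47-fold.

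Of the 2 probes of miR-483-3p, A_26_P00001619 was detected on every array and read 55.2, 51.5 and 94.3 in ARM and 114, 95.5 and 57.9 in control before scaling. After scaling it differed by -0.097 (SE 0.27). Probe A_26_P00001618 read 15.6, 16.7 and 26.1 in ARM and 26.3, 29.2 and 16.2 in control, was detected on 1 of 3 ARM and 2 of 3 control arrays, and differed by 0.024 (SE 0.24). Neither passed (limma, adjusted p = 0.806 and 0.950), and both had the same arrays on the high side, ARM replicate 3 and control replicates 1 and 2.

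miR-675-3p, the detected product of H19, had levels of 3.94, 3.94 and 4.22 on ARM arrays 1 to 3, against 3.94, 4.24 and 3.48 on control arrays 1 to 3. The ARM values lay within the range of the controls. The means were 4.03 ± 0.16 in ARM and 3.89 ± 0.38 in control (SD, n = 3 each), a difference of 0.15 (SE 0.23, 95% interval -0.40 to 0.70; limma, adjusted p = 0.621). The interval corresponds to 0.758-fold to 1.62-fold.

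The level of miR-675-3p is the mean of 4 probes that did not respond alike. Probe A_26_P00002824 read 68.2, 63.5 and 83.4 in ARM and 92.0, 119 and 48.9 in control before scaling, and probe A_26_P00002823 read 52.8, 59.7 and 78.4 in ARM and 81.7, 98.3 and 41.8 in control. These 2 were detected on every array and differed by 0.12 (SE 0.27) and 0.16 (SE 0.27) after scaling (limma, adjusted p = 0.742 and 0.661). Probe A_26_P00002822 was detected on ARM replicate 3 and control replicate 2, and probe A_26_P00002821 on no array, with signals between -2.58 and -0.661. Averaging in A_26_P00002821, at the floor on every array, lowers the level of miR-675-3p and narrows its interval. On the log2 scale A_26_P00002824 and A_26_P00002823 had means of 6.31 and 6.13 in ARM and 6.19 and 5.96 in control. With only the probes detected on all 6 arrays, an alternative chosen after the data were seen, miR-675-3p differed by 0.14 (SE 0.26), against 0.15 with all 4.

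**Figure D2:**
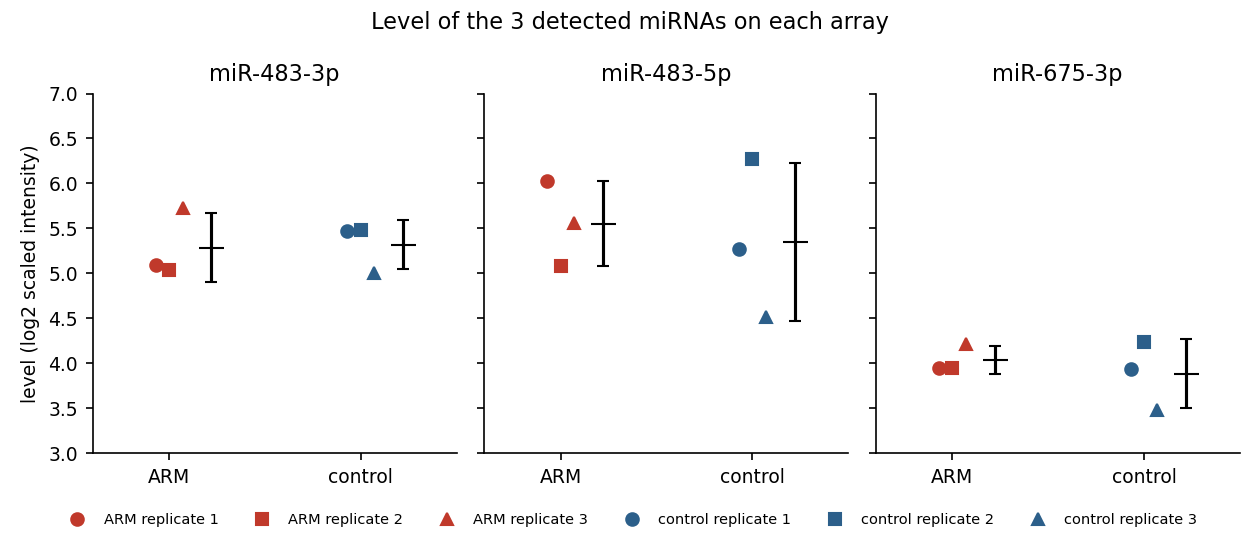
Level in log2 scaled intensity (vertical axis) of miR-483-3p, miR-483-5p and miR-675-3p on each ARM and control array; the symbol gives the replicate number and the bars the group mean ± SD (n = 3). The groups overlap for all 3, and control replicate 3 is the lowest array in each panel. The level of miR-675-3p averages in a probe that sat at the floor on every array.

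miR-675-5p, the other product of the H19 hairpin, was never well above background, in ARM or in control, so no fold is given. Its 4 probes had mean signals between -5.52 and 4.05 intensity units, and none of the 92 spots used was well above background. Its highest spot read 11.8, on control replicate 1. Negative control spots, which carry no miRNA sequence, had array means of 1.62 to 2.10 in ARM and 0.897 to 1.52 in control, with SDs between spots of 2.41 to 2.53 in ARM and 2.38 to 2.79 in control. The scanner software gave miR-675-5p its minimum total gene signal of 0.1 on all 6 arrays. These readings show that it was not detectable with these probes, not that it was absent.

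None of the 3 tested members passed the limma test, and none had ARM and control arrays that did not overlap. Across all 230 tested miRNAs 31 passed (13.5%; 2.17% higher and 11.3% lower in ARM), and for 48.7% the groups did not overlap. At an unadjusted p below 0.05 the count was 0 of 3 members, beside 40.9% of all tested miRNAs. Per probe, none of 8 tested member probes passed, beside 14.9% of 390, none had an unadjusted p below 0.05, beside 37.9%, and none had groups that did not overlap, beside 44.6%. The median difference of the 3 members was 0.15, beside 0.17 for all tested miRNAs, and 2 of the 3 were positive, as were 137 of 230. The differences were small beside the others in absolute size: 185 of 230 were larger than that of miR-483-5p, 200 than that of miR-675-3p and 221 than that of miR-483-3p. The count of 31 depended on single arrays: it was 10, 6 and 0 without ARM replicates 1, 2 and 3 and 0, 0 and 92 without control replicates 1, 2 and 3. The count of members that passed was 0 in all 6 of these fits.

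**Figure D3:**
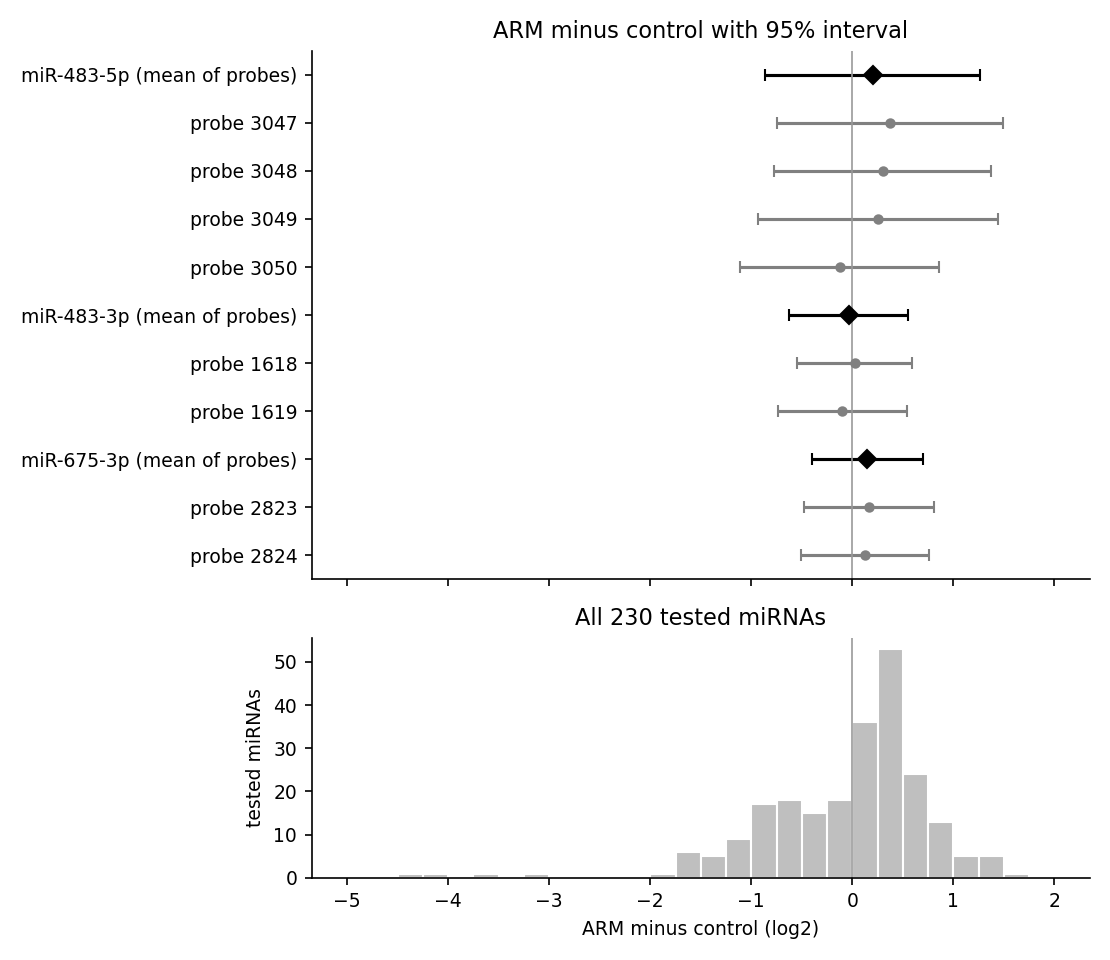
Top: ARM minus control (horizontal axis, log2) with 95% intervals from limma for the 3 tested miRNAs (diamonds) and their 8 tested probes (circles). Bottom: histogram of the same difference for all 230 tested miRNAs. Every interval in the top panel includes 0.

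The members differed in how much they varied within a group. miR-483-5p had a pooled within-group SD of 0.707, exceeded by 21 of the 230 tested miRNAs (9.13%), whereas the median over all was 0.285. miR-483-3p, from the same hairpin, had 0.332 and miR-675-3p 0.292. The value of miR-675-3p is lowered by averaging in probe A_26_P00002821, which sat at the floor on every array. Its probes A_26_P00002823 and A_26_P00002824 had SDs of 0.23 and 0.16 in ARM and 0.47 and 0.49 in control. Spots of 1 probe on 1 array, which are technical repeats, also scattered most for miR-483-5p. The median coefficient of variation between them was 21.4% over its 23 detected probe and array pairs, 7.75% for miR-483-3p (9 pairs) and 5.67% for miR-675-3p (14 pairs). Outlier-flagged spots had been left out: over all pairs, 0 of 96 for miR-483-5p, 10 of 96 for miR-483-3p and 1 of 96 for miR-675-3p. Only 5 of the 230 tested miRNAs had a larger median than miR-483-5p, and the median of all was 6.94%. The scatter between spots and the spread between samples were thus both high for the most purine-rich member, and their relation was not tested.

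After scaling, control replicate 3 was the lowest of the 6 arrays for all 3 detected members, at 4.51 for miR-483-5p, 5.01 for miR-483-3p and 3.48 for miR-675-3p. For miR-483-3p it lay just below ARM replicate 2 (5.04), and before scaling both of its probes were lower on an ARM array (51.5 against 57.9 for A_26_P00001619 and 15.6 against 16.2 for A_26_P00001618). On the scaled levels it was the lowest array for 12 of the 230 tested miRNAs (5.22%), the 3 members among them. This pattern was noticed in the data and carries no test. Without that array the differences were -0.22 (SE 0.41) for miR-483-5p, -0.19 (SE 0.25) for miR-483-3p and -0.054 (SE 0.17) for miR-675-3p, all negative and none passing (limma, adjusted p = 0.675, 0.544 and 0.808). Without control replicate 2 they were 0.66 (SE 0.37), 0.045 (SE 0.30) and 0.32 (SE 0.23), all positive and none passing (limma, adjusted p = 0.242, 0.909 and 0.325).

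Slide was tested as a batch. Slide 1 held ARM replicates 1 and 2 and all 3 controls, and slide 2 held ARM replicate 3 alone. With slide as a block, which equals the comparison within slide 1, miR-483-5p differed by 0.20 (SE 0.54), miR-483-3p by -0.26 (SE 0.24) and miR-675-3p by 0.058 (SE 0.28). None passed the limma test there (adjusted p = 0.781, 0.464 and 0.869), and neither did any other miRNA, although 78 of 230 had an unadjusted p below 0.05. The value of miR-483-3p, whose highest array was ARM replicate 3, moved most.

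Directions of such small differences depended on the scaling. Without scaling the median of all tested miRNAs was -0.13, against 0.17 with it, and miR-483-5p stood at -0.11, miR-675-3p at -0.085 and miR-483-3p at -0.35. Relative to the median of all tested miRNAs, miR-483-5p stood at 0.021 without scaling and 0.027 with it, miR-675-3p at 0.047 and -0.025, and miR-483-3p at -0.22 and -0.21. In none of the 21 alternative fits, some of which coincide, did any of the 3 pass. The lowest adjusted p was 0.128 (limma), for miR-675-3p with normexp background correction (0.17, SE 0.084).

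**Figure D4:**
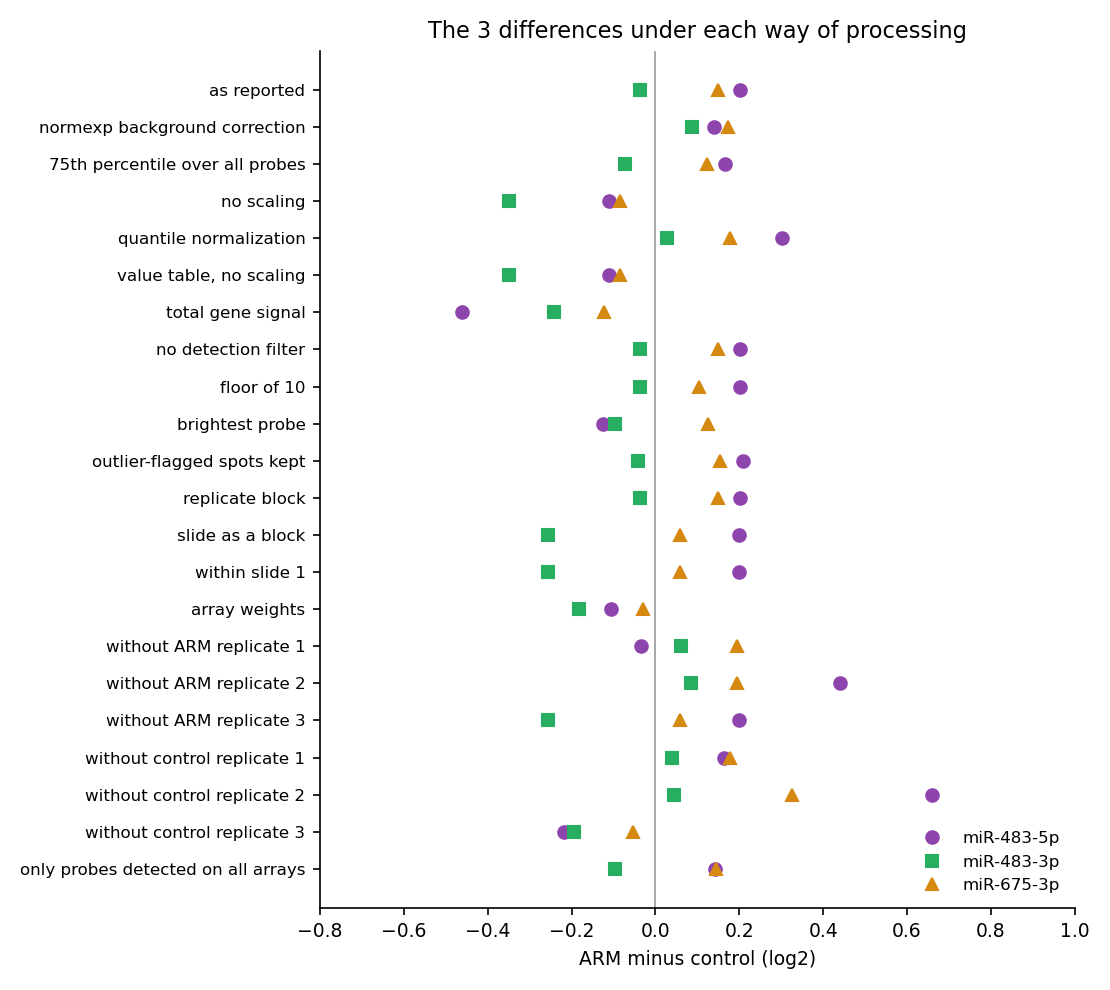
ARM minus control (horizontal axis, log2) of miR-483-5p, miR-483-3p and miR-675-3p as reported and under 21 alternatives (rows), among them each array left out in turn. The points lie between -0.46 and 0.66 on both sides of 0.

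The patterns of the members over the 6 arrays were compared by Pearson's r of the log2 levels, given as a description, since all points share the same 6 arrays and their scaling. miR-483-5p and miR-675-3p, from different genes of the locus, had r = 0.80, miR-483-3p and miR-675-3p had r = 0.75, and the 2 arms of Mir483 had r = 0.44. Without control replicate 3 (5 arrays) these were 0.52, 0.75 and 0.14. The arms of 1 hairpin thus had the lowest r of the 3 pairs on these arrays.

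Outside the members themselves, the tested miRNAs most like miR-483-5p were miR-211-3p (r = 0.97), miR-3593-3p (0.94) and miR-328a-5p (0.92). miR-211-3p had levels of 5.21, 4.52 and 4.68 on ARM arrays 1 to 3, against 4.62, 5.49 and 4.23 on control arrays 1 to 3, and so shares with miR-483-5p the highest array, control replicate 2, and the lowest, control replicate 3. Its sequence is shown because its base composition is also close to that of miR-483-5p, with 17 purines in 20 bases (85.0%) and no uracil in either. It lies at chr1:127189389-127189408 on the plus strand (GRCr8, RefSeq), far from Igf2.

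miR-211-3p: gGCAAGGAcagcaaaggggg

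miR-3593-3p, by contrast, is 45.5% purine. The miRNAs most like miR-483-3p were miR-23a-5p (r = 0.93), miR-142-3p (0.81) and miR-423-5p (0.77). miR-23a-5p had its highest level on ARM replicate 3 as well, at 4.86 against 3.43 and 3.02 on ARM replicates 1 and 2, and 3.92, 3.82 and 3.36 on control replicates 1 to 3. The non-members most like miR-675-3p were miR-3593-3p (0.85), miR-185-5p (0.80, and 0.22 without control replicate 3) and miR-3557-3p (0.80).

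Other imprinted miRNAs are given for comparison, as a list of miRNAs from Mest, the Gnas locus and the Dlk1-Dio3 cluster. Of 66 on the array 28 were tested, of which 0 passed as higher, 10 passed as lower in ARM, beside 11.3% of all tested miRNAs, and 18 did not pass (limma), with a median of -0.83 beside 0.17 for all. The 10 that fell included miR-431 (-1.45, SE 0.35), miR-381-3p (-1.34, SE 0.31), miR-376b-3p (-1.19, SE 0.24) and miR-495 (-1.27, SE 0.31), all of Dlk1-Dio3 (limma, adjusted p = 0.0341 to 0.0385). With normexp background correction these 4 were -0.68, -0.31, -0.30 and -0.22 and did not pass (limma, adjusted p = 0.0591, 0.0835, 0.0776 and 0.0915). With slide as a block, which leaves ARM replicate 3 without weight, no miRNA of any list passed, but the differences did not shrink for these 4, at -1.59, -1.40, -1.31 and -1.36 (limma, adjusted p = 0.0607 to 0.0888). miR-495 turned positive with the total gene signal. miR-434-3p, the tested member of the list with the highest mean, fell by 0.99 (SE 0.23), and by 0.66 with normexp. The 3 tested members outside Dlk1-Dio3, named after their values were seen, did not pass: miR-335, hosted by Mest, at -0.47 (SE 0.22), and miR-296-5p and miR-298-5p, from the Gnas locus, at 0.059 (SE 0.16) and 0.27 (SE 0.18), both negative without scaling. The miR-483 and miR-675 values were not tested against those of the list.

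Another list held miRNAs reported in human or mouse cells to target Igf1, Igf1r, Igf2 or their binding proteins. Of 43 on the array 21 were tested, 0 passed as higher, 4 passed as lower in ARM, beside 11.3% of all tested miRNAs, and 17 did not pass, with a median of 0.18. Of these 4, 3 are also in the list of striated muscle markers. The falls were of miR-206-3p (-4.11, SE 0.87), miR-1-3p (-3.62, SE 0.68) and miR-133b-3p (-3.16, SE 0.55), which are miRNAs of striated muscle, and of miR-99a-5p (-0.98, SE 0.24; limma, adjusted p = 0.0330 to 0.0385 for the 4). With slide as a block they were -4.50, -3.81, -3.41 and -1.02. miR-1-3p was -1.45 with normexp, where it passed, and turned positive with the total gene signal. let-7a-5p, the member with the highest mean, differed by 0.19 (SE 0.20) and did not pass.

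Igf2 and H19 are abundant in fetal muscle and liver, so markers of those tissues are given beside the members, with erythroid and gut wall markers. Like the other lists, these were chosen with earlier results of these data known, so their counts are a description only. Of the 4 tested striated muscle markers (of 8 on the array) 3 passed as lower in ARM, beside 11.3% of all tested miRNAs. The other, miR-133a-3p, named after its value was seen, was also lower but did not pass (-1.61, SE 0.50; limma, adjusted p = 0.0631). The summed scaled intensity of the 4 was 124 to 297 in ARM and 930 to 4048 in control. The 1 tested liver marker (of 2), miR-122-5p, had levels of 4.44, 1.09 and 2.45 on the ARM arrays, below the 6.82, 7.74 and 6.74 of the controls, and fell (-4.44, SE 0.77; limma, adjusted p = 0.0330; -1.38 with normexp and -4.33 with slide as a block). Both tested erythroid markers (of 5), miR-486 (-1.78, SE 0.28) and miR-451-5p (-1.64, SE 0.30), fell, by 0.59 and 1.01 with normexp and by 1.71 and 1.75 with slide as a block, and summed to 74.3 to 115 in ARM and 223 to 399 in control. Of the lists of the gut wall itself, intestinal epithelium (9 tested of 14) summed to 1858 to 2994 in ARM and 589 to 1675 in control. Smooth muscle (2 of 4) summed to 994 to 1055 in ARM and 598 to 1041 in control. None of the tested members of these lists passed, beside 13.5% of all tested miRNAs. Their members with the highest means were miR-192-5p (1.33, SE 0.52) and miR-143-3p (0.47, SE 0.24). The part of these markers in the levels of miR-483 and miR-675 was not tested. In pieces of whole tissue, fewer cells of a type and less RNA per cell cannot be told apart.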

How the data were processed

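The 6 one-colour (Cy3) Agilent arrays were read with Feature Extraction 10.7.1.1, per the file headers. The deposited intensity of each spot was background-subtracted and spatially detrended by that software, with no scaling between arrays. The deposited value table held the same intensity for every spot (largest difference 0). The authors' files also give a total gene signal, an intensity per miRNA. Control spots and outlier-flagged spots were left out here and the spots of a probe averaged. Each array was scaled by its 75th percentile over the 300 probes that every array detected, values under 1 were set to 1, log2 was taken, and a miRNA's probes were averaged. miRNAs with a probe detected on at least 3 arrays (230) were tested with limma 3.58.1 (R 4.3.3; Benjamini-Hochberg, threshold 0.05), which gave all SEs, intervals (95%) and adjusted p-values; probes detected on at least 3 arrays (390) were tested likewise. Differences are ARM minus control. The fit was tested on simulated data. Alternatives changed the background correction, scaling, floor, filters, probe summary, block and arrays used. The number of arrays limits the precision. Same-numbered samples did not deviate together (correlations of deviations from group means -0.067, -0.28 and -0.21 for numbers 1 to 3), and nothing in the labels pairs them. The members and the lists were chosen with earlier results of these data known. All members are named; of each list, up to 4 members that passed and the one with the highest mean; and for each tested member the 3 tested non-members most like it in pattern, plus those said to be chosen later. Sequences are from RefSeq (GRCr8).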

Additional observations from a re-analysis of the deposited data

How the results depend on the processing

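The 3 members failed the test under all 21 alternatives, and the 8 member probes in all 136 probe fits. Some of these coincide. Slide as a block, within slide 1 and without ARM replicate 3 gave the same fit, and per miRNA so did no scaling and the value table. Signs of these small differences turned: miR-483-5p without scaling or with the value table (-0.11), with the total gene signal (-0.46), the brightest probe (-0.13) and array weights (-0.11); miR-675-3p without scaling or with the value table (-0.085), with the total gene signal (-0.12) and array weights (-0.030); miR-483-3p with normexp background correction (0.087) and quantile normalization (0.027). With single arrays left out miR-483-5p, miR-675-3p and miR-483-3p ranged from -0.22 to 0.66, -0.054 to 0.32 and -0.26 to 0.085. Probes that turned were A_26_P00001619 with normexp (0.010) and quantile normalization (0.033); A_26_P00001618 with the percentile over all probes (-0.012) and with slide as a block or within slide 1 (-0.17); A_26_P00001618, A_26_P00003048, A_26_P00003049, A_26_P00002823 and A_26_P00002824 without scaling (-0.29, -0.010, -0.060, -0.15 and -0.19); and A_26_P00001618, A_26_P00003047, A_26_P00003048, A_26_P00003049, A_26_P00002823 and A_26_P00002824 with array weights (-0.17, -0.073, -0.062, -0.095, -0.11 and -0.13). With single arrays left out probes ranged from -0.17 to 0.15 (A_26_P00001618), -0.34 to 0.061 (A_26_P00001619), -0.039 to 0.93 (A_26_P00003047), -0.15 to 0.76 (A_26_P00003048), -0.20 to 0.73 (A_26_P00003049), -0.49 to 0.23 (A_26_P00003050), -0.088 to 0.37 (A_26_P00002823) and -0.13 to 0.36 (A_26_P00002824).

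Of other named miRNAs, let-7a-5p (-0.12), miR-296-5p (-0.25) and miR-298-5p (-0.041) turned without scaling or with the value table; miR-1-3p (1.67), miR-495 (1.33), miR-296-5p (-0.13) and miR-298-5p (-0.15) with the total gene signal; and miR-298-5p with a floor of 10 (-0.054) and the brightest probe (-0.22). The limma count over all miRNAs (31) and probes (58) was 16 and 20 with normexp and 87 and 150 with array weights. Both were 0 without a detection filter (unadjusted p below 0.05 for 134 and 240), with the replicate block (73 and 111), and with slide as a block or within slide 1 (78 and 120); with single arrays left out they ranged from 0 to 92 and from 0 to 147, the highest without control replicate 3. With the replicate number as a block, where the samples share only a number, miR-483-5p differed by 0.20 (SE 0.49), miR-483-3p by -0.037 (SE 0.31) and miR-675-3p by 0.15 (SE 0.27). Arrays left out kept the scaling and the tested miRNAs. The cause of these changes was not tested. Low signals, close to the detection limit, limit miR-675-5p and the dimmer probes.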

Other observations

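Among the tested miRNAs with a RefSeq sequence other than the members, 7 were at least 75% purine and 199 were below that, a division made after the data were seen and given without a test. The median r with the pattern of miR-483-5p over the 6 arrays was 0.591 (range -0.040 to 0.971) in the 7 and 0.051 (range -0.902 to 0.940) in the 199. The 7 also stood higher for miR-675-3p (0.460 against 0.057) and miR-483-3p (0.284 against 0.048). Across all 206, purine share and likeness to miR-483-5p were only weakly related (Pearson 0.168, Spearman 0.131; miRNAs on the same arrays are not independent), so the division gives no finding particular to miR-483-5p. The 7 had a median within-group SD of 0.523 and the 199 one of 0.268. Their median scatter between spots was 5.29% (range 2.68% to 22.7%) and 6.84% (range 2.41% to 49.2%), beside 21.4% for miR-483-5p. The relation of this scatter to base composition was not tested. The scanner software's total gene signal of miR-483-5p was 65.6, 34.0 and 51.3 in ARM and 58.5, 103 and 63.1 in control. These signals are before scaling between arrays. There control replicate 3 was not the lowest array, whereas it was lowest in the mean over the probes after scaling. The same held for miR-483-3p (37.8, 36.8 and 65.5 in ARM and 74.5, 65.7 and 39.6 in control). Only for miR-675-3p did control replicate 3 stay lowest (50.8, 53.2 and 70.7 in ARM and 80.9, 81.1 and 48.0 in control). Before scaling, both probes of miR-483-3p also read lower on an ARM array than on control replicate 3. For that arm the contrast is thus between unscaled and scaled values as well as between summaries.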
